A study of Homo sapiens with 18 samples.

Results

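GFP low and GFP high Raji cells were compared at 24 h, with every peak of the series taken into the comparison. The samples were the 3 labelled GFP_LOW and the 3 labelled GFP_HIGH at that time, 6 of 18 in the series. Raji cells are B cells grown from a Burkitt lymphoma, and all 6 samples carry the genotype Smarca4+/+ in the labels. The series concerns degradation of SMARCA4 (BRG1) through an auxin-inducible degron, a tag that sends its protein to the proteasome when auxin is given. The agent, its dose, the number of clones and the protein or state that GFP reports are not stated in the labels. The direction of each difference is therefore given by GFP level alone, and which level goes with less SMARCA4 was not analysed here. Column headers carry D1, D2 and D3, which were read as 24, 48 and 72 h.

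The assay was Omni-ATAC-seq. Its transposase inserts adapters into open DNA, and the reads in a peak count how often that DNA was reached. SMARCA4 is one of the alternative ATPases of the BAF (SWI/SNF) complex, with SMARCA2 as the other. The complex uses ATP to slide or evict nucleosomes, and in many cell types enhancers and other sites away from gene starts depend on it more than the nucleosome-poor starts of widely expressed genes do. In B cells it works with lineage factors such as PAX5, EBF1 and the octamer-binding proteins, whose sites lie largely in such distal elements.

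The table held 71318 peaks of 501 bp on hg38. The 6 columns at 24 h held 7106939 to 8587396 counts in GFP high and 8457449 to 10329013 in GFP low. Within a GFP level the squared difference between columns was 1.78 to 1.80 times the counting variance in all 6 pairs, at weak and strong peaks alike, against 6.17 to 7.22 times in the 9 pairs of GFP low with GFP high. The 3 columns of a level were therefore summed and counted as 1 library, of 22908652 counts in GFP high and 27646157 in GFP low. With 1 library per level there is no test and no replicate check. Differences are given as log2 ratios of CPM (counts relative to the library total, scaled by TMM) with 95% counting intervals, widened by that 1.79-fold excess, and the 3 column values show counting spread only. Gene-end peaks were present at 8 B-cell surface markers, MS4A1, CD79A and CD79B among them, and their summed level was 276 CPM for GFP high, 287 CPM for GFP low. Of 6 myeloid markers only ITGAM had one, at summed levels of 11.9 and 11.04 CPM, and of 6 epithelial and stromal markers COL1A1 and COL1A2 had one, at 26.9 and 29.3 CPM.

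At 24 h accessibility was lower in GFP low at many sites by a large factor and higher at many others by a small one. In GFP low, 5822 peaks, or 8.16% of all, were at least 2-fold lower, and 151 peaks, or 0.212%, were at least 2-fold higher. The 2-fold higher count depended on the processing, at 654 with loess scaling, 259, 275 and 350 without GFP high column V0, V1 or V2, and 72 at a mean count of at least 30. At a limit of 1.5-fold with the counting interval on the same side of 0, 14133 peaks (19.8%) were lower and 3569 (5%) were higher. The median peak among the 5822 kept 42.6% of its GFP high level. In bulk libraries, fewer cells with a site open and less opening in each cell cannot be told apart. Columns of the 5822 peaks did not overlap between the GFP levels in 5738 cases. The 5822 were chosen by the sums of these same columns, so this count is no separate support for them. Over all peaks 26.7% had every GFP low column below every GFP high column and 22.7% had the reverse. The 2-fold lower peaks lay in or near 2812 genes, and 1703 of them had no protein-coding gene within 50 kb. Scaling by a loess curve over peak level, which sets the typical difference to 0 at each level, left 3854 peaks at least 2-fold lower, 3733 of them among the 5822, and gave 5999 at least 1.5-fold higher.

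Lower peaks were rare at gene ends, while peaks of both directions lay mostly away from them. Of the 1.5-fold higher peaks, 2547 (71.4%) lay away from gene ends. Peaks whose centre lies within 1 kb of either end of a protein-coding gene, called gene-end peaks here, numbered 13716 and had a median log2 difference of 0.25. The 30807 peaks inside gene bodies and the 26795 intergenic peaks both had a median of -0.10. Of the gene-end peaks 102 (0.744%) were at least 2-fold lower, against 2728 (8.86%) in gene bodies and 2992 (11.2%) between genes, so 98.2% of all 2-fold lower peaks lay away from gene ends. At the same 1.5-fold limit, 1022 gene-end peaks (7.45%), 1341 gene-body peaks (4.35%) and 1206 intergenic peaks (4.5%) were higher. With loess scaling the gene-end median was 0.14, those of gene-body and intergenic peaks were -0.03 and 0.003, and the 1.5-fold higher counts became 736, 2694 and 2569. The excess of 2-fold lower peaks away from gene ends stayed under that scaling, at 62, 1737 and 2055. By number, gene bodies held the most 1.5-fold higher peaks under both scalings. By share of the class, gene ends came first with TMM scaling and last with loess scaling. The loess counts were 736 of 13716, against 2694 of 30807 and 2569 of 26795.

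**Figure D1:**
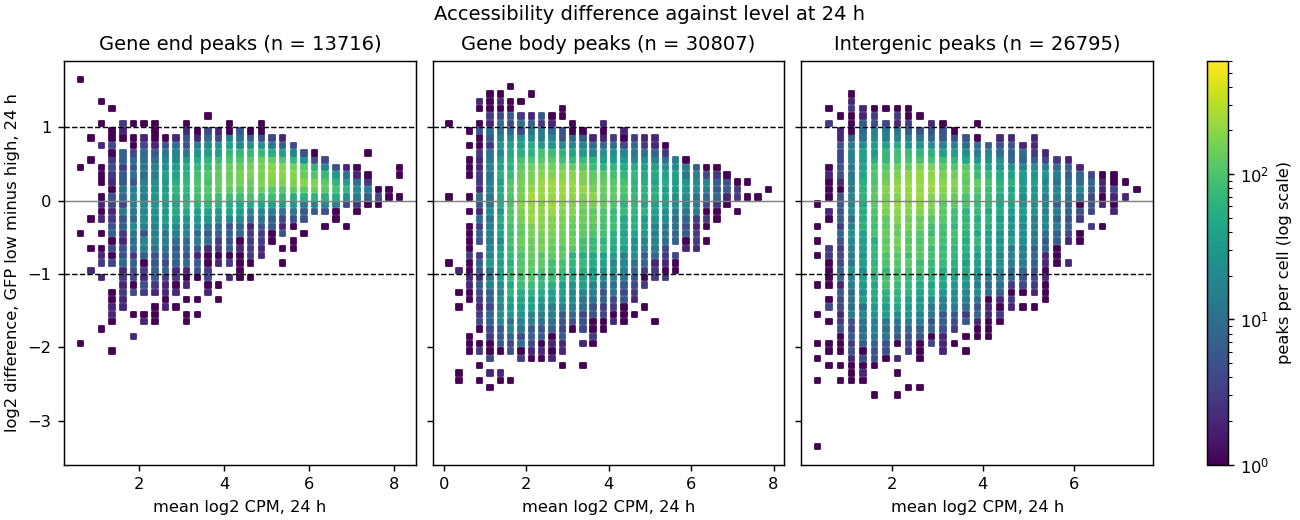
The panels plot the log2 difference of GFP low minus GFP high at 24 h (vertical) against the mean log2 CPM of the peak (horizontal) for gene-end, gene-body and intergenic peaks, with colour for the number of peaks per cell on a log scale and dashed lines at 2-fold. The 13716 gene-end peaks lie mostly above 0 with few below the lower dashed line (102), while 2728 gene-body and 2992 intergenic peaks lie at or below it.

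Peak level moves with position and with the difference. Median levels in GFP high were 20.9 CPM at gene ends, 7.22 in gene bodies and 6.58 between genes. Peaks were split into 10 bins of equal size by level, and within a bin the classes still differed. In bin 9 the medians were 0.32 at gene ends, 0.005 in gene bodies and -0.06 between genes. In bin 1, the weakest, all 3 were below 0, at -0.17, -0.28 and -0.25, and there 11.01%, 20.1% and 19.8% of the peaks were at least 2-fold lower. Weak gene-end peaks were thus lower in GFP low at the median, and the higher median at gene ends came from stronger ones.

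The difference followed distance to the nearest annotated gene start. Within 0.25 kb of a start the median was 0.31 and 0.302% of 7287 peaks were at least 2-fold lower. Between 2.5 and 5 kb it was -0.01 and 5.47%, and over 250 kb from any start it was -0.21 and 14.7% of 7466 peaks. The share of 2-fold lower peaks went up at each step of distance. Gene ends over 1 kb from any annotated start, 3001 peaks that are mostly the far ends of genes, had a median of 0.19 with 2.03% at least 2-fold lower. Starts on chromosome 8 were not used here, so its 3478 peaks are not in these distance classes.

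**Figure D2:**
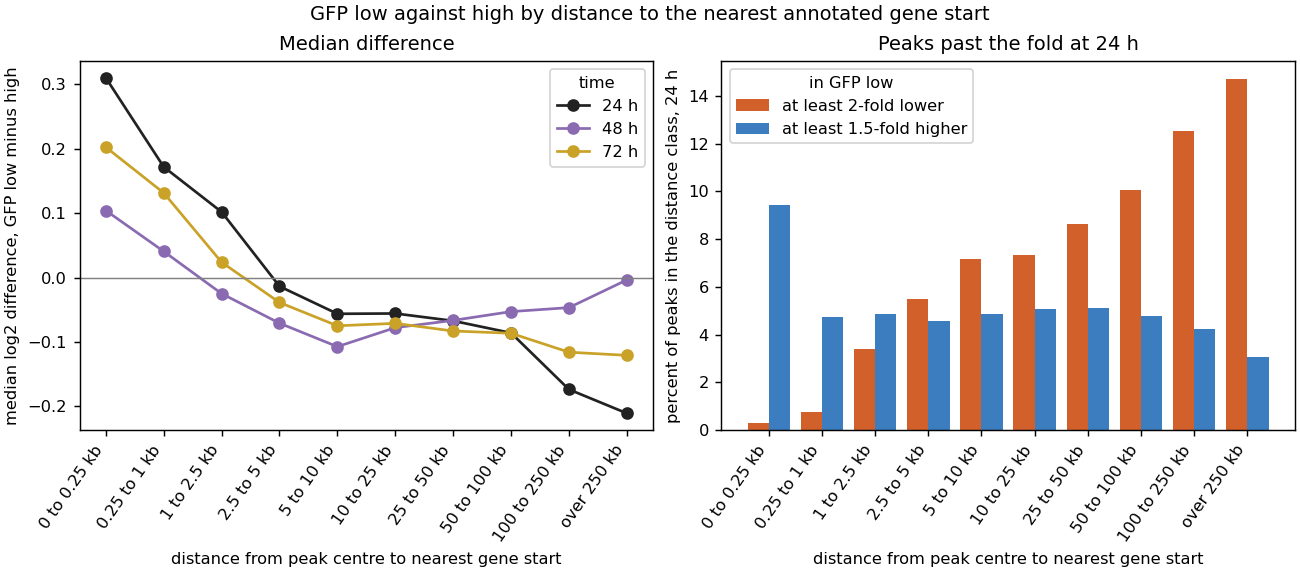
The left panel plots the median log2 difference of GFP low minus GFP high at 24, 48 and 72 h by distance from the peak centre to the nearest annotated start, and the right panel gives the percent of peaks in each class that are at least 2-fold lower or 1.5-fold higher at 24 h. The 24 h line goes from 0.31 at the starts to -0.21 beyond 250 kb, and the share of 2-fold lower peaks goes from 0.302% to 14.7%.

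A promoter window is the 300 bases from 250 before to 50 after a gene start in the RefSeq table for GRCh38.p14. Of 8216 peaks over such a window, 785 were at least 1.5-fold higher, 118 at least 1.5-fold lower and 29 at least 2-fold lower. The median of the 8216 was 0.31. The promoters with the largest differences in each direction show how these groups differ in base composition, and the bases before the start that lie inside the peak are printed for 3 of the lower and 4 of the higher ones, chosen after their values were seen. They are the largest differences over promoter windows with at least 30 counts on average and no overlap of columns. Capitals mark matches on either strand to the searched motifs, which are named below. The lower promoters are those of DSE (chr6:116369569-116369818, plus strand), IL18RAP (chr2:102418371-102418620, plus strand) and H2AL3 (chrX:37994022-37994271, plus strand). DSE codes for an epimerase that makes dermatan sulfate, IL18RAP for the accessory chain of the interleukin-18 receptor and H2AL3 for a histone H2A variant.
DSE: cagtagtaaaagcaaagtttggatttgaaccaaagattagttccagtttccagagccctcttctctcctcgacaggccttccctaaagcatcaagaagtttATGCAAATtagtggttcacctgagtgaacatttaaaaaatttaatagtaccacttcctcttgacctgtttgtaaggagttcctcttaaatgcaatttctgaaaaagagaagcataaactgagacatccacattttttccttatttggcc
IL18RAP: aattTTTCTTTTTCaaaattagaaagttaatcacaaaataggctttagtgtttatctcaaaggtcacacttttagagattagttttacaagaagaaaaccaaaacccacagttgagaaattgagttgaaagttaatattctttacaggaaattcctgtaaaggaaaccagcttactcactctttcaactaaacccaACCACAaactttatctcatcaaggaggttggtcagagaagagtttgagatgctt
H2AL3: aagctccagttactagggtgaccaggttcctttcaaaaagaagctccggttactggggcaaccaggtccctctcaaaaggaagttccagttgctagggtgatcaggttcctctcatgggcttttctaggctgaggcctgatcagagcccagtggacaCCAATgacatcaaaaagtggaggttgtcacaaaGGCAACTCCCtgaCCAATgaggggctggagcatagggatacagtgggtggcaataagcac

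The capitals are an octamer in DSE, an IRF site and a RUNX site in IL18RAP, and a pair of CCAAT boxes with an NF-kB site in H2AL3. These stretches held 1, 0 and 1 CpG and 37.6%, 32.4% and 51.6% G and C. The DSE promoter peak went from 24.3 CPM in GFP high to 7.24 in GFP low, a log2 difference of -1.74 (95% counting interval -2.05 to -1.43), and it was -1.27 at 48 h and -1.20 at 72 h. The IL18RAP and H2AL3 peaks were both at -1.59, with 6.11 and 1.97 CPM for the first and 19.0 and 6.25 for the second.

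The higher promoters are those of ANKRD12 (chr18:9137313-9137562, plus strand), RBMS2 (chr12:56521570-56521819, plus strand), NUCB1 (chr19:48900062-48900311, plus strand) and EIF4A1 (chr17:7572575-7572774, plus strand). RBMS2 codes for an RNA-binding protein, NUCB1 for a calcium-binding protein of the Golgi and EIF4A1 for the RNA helicase that unwinds messenger RNA at the start of translation.
ANKRD12: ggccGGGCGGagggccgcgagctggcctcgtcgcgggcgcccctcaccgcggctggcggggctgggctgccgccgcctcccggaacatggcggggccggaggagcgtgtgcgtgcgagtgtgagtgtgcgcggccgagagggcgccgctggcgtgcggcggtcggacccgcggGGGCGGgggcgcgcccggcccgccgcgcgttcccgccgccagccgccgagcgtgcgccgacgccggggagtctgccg
RBMS2: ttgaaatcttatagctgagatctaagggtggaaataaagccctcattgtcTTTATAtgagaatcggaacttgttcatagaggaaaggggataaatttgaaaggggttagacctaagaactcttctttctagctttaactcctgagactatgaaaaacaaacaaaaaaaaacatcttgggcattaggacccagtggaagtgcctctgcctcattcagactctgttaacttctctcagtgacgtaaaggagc
NUCB1: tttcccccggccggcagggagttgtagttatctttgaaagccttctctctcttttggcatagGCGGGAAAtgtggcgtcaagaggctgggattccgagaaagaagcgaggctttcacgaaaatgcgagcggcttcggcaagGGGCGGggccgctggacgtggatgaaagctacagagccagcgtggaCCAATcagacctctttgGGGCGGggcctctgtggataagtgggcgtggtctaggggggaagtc
EIF4A1: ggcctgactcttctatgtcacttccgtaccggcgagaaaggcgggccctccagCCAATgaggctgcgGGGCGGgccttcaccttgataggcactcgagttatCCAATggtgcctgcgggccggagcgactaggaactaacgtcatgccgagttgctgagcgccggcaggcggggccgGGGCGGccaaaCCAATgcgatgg

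ANKRD12, NUCB1 and EIF4A1 have GC boxes in capitals and 48, 16 and 18 CpG. NUCB1 has an E2F site and a CCAAT box as well, and EIF4A1 has CCAAT boxes. RBMS2 is the exception among the 4, with a TATA box, 2 CpG and 39.2% G and C. The ANKRD12 peak went from 7.87 to 17.1 CPM, a log2 difference of 1.11 (0.78 to 1.44), and the EIF4A1 peak from 19.4 to 39.4 CPM, at 1.01 (0.80 to 1.23). At 48 h these promoters showed little of this, with log2 differences of 0.22 for ANKRD12, -0.09 for RBMS2, 0.05 for NUCB1 and -0.12 for EIF4A1. At 72 h ANKRD12 was at 0.51 (0.22 to 0.80) and EIF4A1 at 0.49 (0.28 to 0.70), with intervals clear of 0, and RBMS2 and NUCB1 were at 0.26 and -0.05.

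Over all promoter windows with a peak, the 117 that were at least 1.5-fold lower had a median of 4 CpG and 48.7% G and C, against 27 and 65.7% in the 7185 that passed neither limit and 29 and 66.7% in the 776 that were at least 1.5-fold higher. All 22049 windows had a median of 21 CpG and 62.3%. The lower promoters were also weaker, at a median of 7.997 CPM in GFP high against 29.8 and 16.9 CPM. Low-CpG starts often belong to genes of restricted expression and CpG-rich starts to widely expressed ones. From the first to the last of 5 equal bins of CpG number, the median difference at 24 h went from 0.19 through 0.30, 0.33 and 0.34 to 0.36. At 48 h the same bins were at 0.07, 0.14, 0.12, 0.10 and 0.08, without this order, and at 72 h they went from 0.14 to 0.21, 0.21, 0.21 and 0.22, in the same order as at 24 h with small steps after the second bin.

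Motif shares followed base composition in part. Motifs were searched as fixed letters on both strands, none of them contains another, and matches of different motifs may overlap. The GC box bound by SP and KLF factors (GGGCGG) stood in 19.7% of lower, 72.3% of neither and 77.1% of higher promoters, and in 56.3% of all windows. The ETS site (CCGGAAG) stood in 3.42%, 20.5% and 25.5%, and in 12.8% of all windows. The YY1 site (AAGATGGCG) was in 0 of 117 lower, 4.62% of neither and 7.73% of higher promoters (60 of 776), and in 2.42% of all windows. The octamer bound by OCT1 and OCT2 (ATGCAAAT), a hallmark of B-cell promoters and enhancers, ran the other way, at 10.3%, 1.41% and 1.93%, and in 1.65% of all windows. The TATA box (TATAAA) was in 22.2%, 4.80% and 5.67% with 9.47% of all windows, and the RUNX site (TGTGGT) in 24.8%, 9.66% and 6.57% with 11.3%.

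Part of these gaps remained among windows with at most 17 CpG, a split made after the shares were seen, with 109 lower, 1398 neither and 109 higher promoters. There the octamer was in 11.01%, 3.86% and 6.42%, the TATA box in 23.9%, 11.8% and 15.6%, and the RUNX site in 26.6%, 18.4% and 16.5%. The ETS site was in 0.917%, 11.9% and 23.9%, the GC box in 13.8%, 36.0% and 40.4%, and the CCAAT box of NF-Y (CCAAT) in 32.1%, 44.1% and 60.6%. The AP-1 site (TGANTCA), at 9.40%, 3.81% and 2.58% over all promoters with a peak, was at 10.1%, 8.44% and 8.26% in the low-CpG windows, where the 3 groups hardly differed. These shares describe letters in a window and say nothing of which factor was bound.

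The largest falls lay far from gene starts. Named peaks have at least 30 counts on average over the 6 columns, and their columns do not overlap between the GFP levels. Of all peaks, 4365 (6.12%) were at least 2-fold lower and met both conditions. The lowest of these was chr10:37549007-37549507, 209 kb from the nearest gene end, with 8.32, 6.83 and 9.29 CPM in the GFP high columns and 0.717, 2.05 and 0.881 in the GFP low columns. GFP low kept 14.7% of the level, a log2 difference of -2.69 (95% counting interval -3.39 to -1.999). Intergenic peaks at chr5:54398080-54398580, chr17:72190161-72190661 and chr4:108247520-108248020 followed at -2.65, -2.57 and -2.56, and those at chr8:142041670-142042170 and chr2:17059388-17059888 at -2.36 and -2.22. All 6 intergenic sites lay over 50 kb from any protein-coding gene.

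The other 4 of the 10 largest falls lay inside genes. CNTNAP2, a neuronal adhesion protein of the neurexin family, had a peak (chr7:146539726-146540226) at 7.76, 7.10 and 5.05 CPM in GFP high against 0.717, 1.48 and 1.08 in GFP low (-2.50, -3.23 to -1.76). A peak inside GASK1B (chr4:158129615-158130115) stood at -2.42. EPHB1, an ephrin receptor tyrosine kinase, had, at chr3:135066948-135067448, the highest level among the 10, at 24.1, 22.4 and 21.2 CPM against 4.54, 4.68 and 4.50, a difference of -2.28 (-2.65 to -1.91). TRPM6, a magnesium channel (chr9:74865053-74865553), went from 16.9 to 3.55 CPM (-2.23). That every GFP low column of the 10 lay below every GFP high column follows from the naming rule. All 10 were also lower at 48 and 72 h, by less than at 24 h at both times, with log2 differences of -0.78 for GASK1B to -2.16 for the chromosome 8 site at 48 h and of -0.78 for CNTNAP2 to -2.09 for EPHB1 at 72 h.

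**Figure D3:**
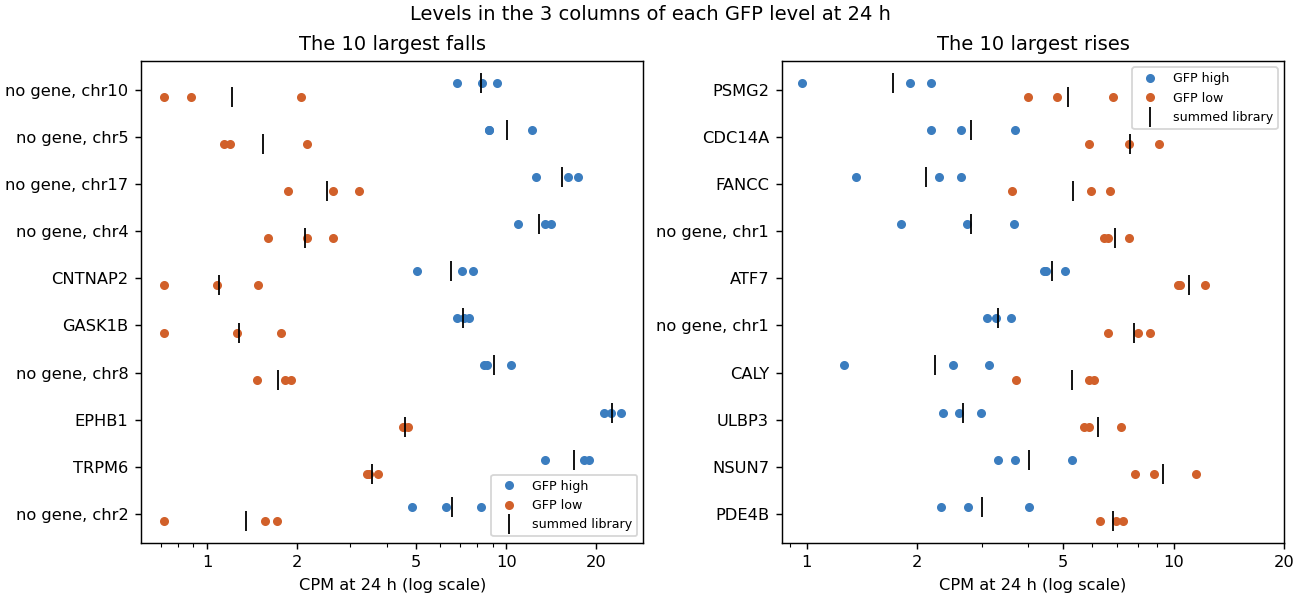
Points give the CPM of each of the 3 columns per GFP level at 24 h on a log axis for the 10 largest falls (left) and the 10 largest rises (right), and vertical bars mark the summed library. The 20 peaks were taken only from those whose columns do not overlap between the GFP levels. The falls leave 14.7% to 21.0% of the GFP high level and the rises reach 2.27 to 3.00 times it.

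The largest rises were smaller and sat at weak peaks. A peak inside PSMG2, a proteasome assembly chaperone (chr18:12659562-12660062), had 0.970, 1.91 and 2.18 CPM in GFP high against 6.81, 3.99 and 4.80 in GFP low, a log2 difference of 1.54 (0.88 to 2.21). It lay 1.07 kb from the gene's start. CDC14A, a cell-cycle phosphatase, stood at 1.42 (chr1:100455389-100455889), and FANCC, a subunit of the Fanconi anaemia DNA repair complex, at 1.30 (chr9:95167861-95168361). ATF7, a transcription factor of the ATF family, had, at chr12:53543363-53543863, 4.44, 5.05 and 4.47 CPM against 10.3, 10.4 and 12.1, at 1.23 (0.81 to 1.65). CALY, ULBP3 (a ligand of the NKG2D receptor of killer cells), NSUN7 and PDE4B (a cyclic AMP phosphodiesterase) were at 1.21, 1.20, 1.19 and 1.16, and intergenic peaks at chr1:30191298-30191798 and chr1:178666814-178667314 at 1.28 and 1.22. The CALY and ULBP3 peaks lay 2.88 and 12.8 kb outside the genes. Few kept this size later: at 48 h the 10 were between -0.13 (ULBP3) and 1.07 (NSUN7), and at 72 h between 0.18 (PSMG2) and 0.61 (CALY).

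Among strong peaks the differences were smaller. Of the peaks at least 2-fold lower, those with the most CPM in GFP high were at chr1:125179882-125180382, which has no gene within 50 kb, 5.72 kb from VWC2, near LOC124901498 and 2.00 kb from LRRC32. VWC2 codes for a secreted inhibitor of bone morphogenetic proteins, and its peak (chr7:49767667-49768167) had 65.4, 63.4 and 62.1 CPM in GFP high against 25.5, 23.9 and 27.1 in GFP low, at -1.31 (-1.48 to -1.14). LRRC32 (GARP), which holds latent TGF-beta on the cell surface, had a peak (chr11:76672501-76673001) at 59.8 and 27.3 CPM, at -1.13. Of the peaks at least 1.5-fold higher, those with the most CPM were all at gene ends. RPL13A, a ribosomal protein gene, had, at chr19:49487053-49487553, 122.5, 137 and 128 CPM against 208, 208 and 205, at 0.68 (0.59 to 0.76). ZMIZ2, ACTB (beta-actin) and FBRS stood at 0.61, 0.59 and 0.62. With loess scaling these 4 gene-end peaks were at 0.38 to 0.45, under 1.5-fold, and the 4 strong lower peaks were at -1.27 to -1.50.

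At gene ends the largest falls were also at weak peaks. CASP6, an executioner caspase, had, at chr4:109708956-109709456, 6.65, 7.24 and 6.31 CPM in GFP high against 0.956, 2.62 and 1.66 in GFP low, at -1.89 (-2.50 to -1.28). NLRP2B, DCAKD, PHF24 and TMEM210 followed at -1.82, -1.67, -1.65 and -1.64. ADGRB3, an adhesion receptor of the brain, was at -1.61 at 24 h and at -0.25 and -0.21 later. Of these 6 peaks only that of TMEM210 lay within 1 kb of an annotated start. Among the rises at gene ends were HFE, a regulator of iron uptake (chr6:26097213-26097713), with 3.60, 3.14 and 3.56 CPM against 9.09, 7.08 and 6.26, at 1.09 (0.59 to 1.58), the actin-bundling protein gene PLS3 at 1.06 and OSER1 at 1.01, beside ANKRD12, NUCB1 and EIF4A1.

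SMARCA4, the gene of the protein under study, has a single gene-end peak (chr19:10960534-10961034), 0.25 kb from its start. It had 15.9, 9.42 and 13.9 CPM in GFP high against 19.5, 23.2 and 20.3 in GFP low, so the columns did not overlap. The log2 difference was 0.67 (0.41 to 0.94) at 24 h, -0.24 at 48 h and 0.32 at 72 h. SMARCA2, the gene of the alternative ATPase, had a peak at 85.9 and 93.0 CPM near its start (0.11, 0.00 to 0.23) and one at 23.4 and 27.0 CPM (0.21, -0.01 to 0.42), and the first was at -0.10 with loess scaling. These are levels of DNA accessibility at the genes and carry no information on the protein. The 163 peaks of 26 BAF subunit genes had a median of 0.08, with 4 peaks at least 2-fold lower. At the 1.5-fold limit 24 (14.7%) were lower and 8 (4.91%) higher, against 19.8% and 5% of all peaks. The 4 peaks at least 2-fold lower were all assigned to ARID1B, a DNA-binding subunit. The one with the largest difference, 46.6 kb outside the gene (chr6:156729181-156729681), had 10.7, 11.1 and 12.6 CPM against 3.83, 2.40 and 3.52, at -1.80. The start of ARID1A, its paralog (chr1:26695318-26695818), was at 0.73 (0.53 to 0.92) with 24.8 and 41.0 CPM, and it was at -0.15 at 48 h.

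Lower sites had lower neighbours more often than other sites did, most clearly at short distance, though most lower sites stood alone in the order of peaks. Among neighbouring peaks away from gene ends with centres under 2 kb apart, 32.7% of the next peaks after a 2-fold lower peak were 2-fold lower as well, against 4.78% after a peak that was not (7271 pairs). At 2 to 10 kb these were 18.7% and 8.70%, at 10 to 50 kb 16.5% and 10.5%, and over 50 kb 13.6% and 12.2%. The gap thus narrowed with distance. Centres were at least 501 bp apart, and whether close peaks share reads was not analysed here. Sites with no other peak within 10 kb were at least 2-fold lower in 11.7% of 24118 cases, and those with 4 or more in 3.54% of 3786, and the former were also weaker, at a median of 5.46 against 13.996 CPM.

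Most runs of 2-fold lower peaks were short: 4122 stood alone, 598 were pairs, 121 were runs of 3, 27 of 4, 4 of 5, and 1 each of 6 and 7. The run of 7, named after its values were seen, spanned chr8:132985437-133058453 over TG and SLA, with differences of -1.11 to -1.91. SLA, which lies inside TG, codes for an adaptor that limits antigen receptor signalling in lymphocytes, while TG codes for thyroglobulin, made in the thyroid. The run of 6, at chr9:81655283-82092066 next to the corepressor gene TLE1, had a median of -1.28. By gene, TG had 11 of its 14 peaks at least 2-fold lower and a median of -1.30, which was -0.81 at 48 h and -0.78 at 72 h.

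The 5 genes with the most 2-fold lower peaks were DLG2 with 14 of 53, TG, HDAC9 with 9 of 53, MOB3B with 9 of 16 and LPP with 8 of 40. DLG2 is a synaptic scaffold gene of 2173 kb, HDAC9 a histone deacetylase gene and LPP a gene of cell adhesion. A gene with more peaks has more that can pass a limit, and MOB3B and TG are the ones of the 5 where more of the peaks passed than did not. MOB3B had a median of -1.11 at 24 h, -0.75 at 48 h and -0.86 at 72 h. Of 1191 genes with at least 10 peaks, 868 had a median below 0, 423 had no 2-fold lower peak, 62 had a median at least 1.5-fold lower and 0 had one at least 1.5-fold higher.

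Gene lists were described by all peaks in their genes or nearest to them within 50 kb, and read against the 8.16% of all peaks that were at least 2-fold lower. The share was below that at B-cell identity regulators (3.64%) and close to it at B-cell receptor signalling genes (8.37%). Peaks of both lists were stronger, at GFP high medians of 12.5 and 10.4 CPM against 8.08 over all peaks. Over all peaks of level bins 7 and 8, with GFP high medians of 11.2 and 15.3 CPM, the share was 5.67% and 3.74%. Of 330 peaks at 20 B-cell identity regulators, 12 were at least 2-fold lower, 56 at least 1.5-fold lower and 8 at least 1.5-fold higher, with a median of -0.08. Their 32 gene-end peaks had a median of 0.29 and the 298 others -0.11, against 0.25 and -0.10 over all peaks of those classes. EBF1, which commits progenitors to the B lineage, had a peak 19.1 kb outside the gene (chr5:158676572-158677072) at 11.1, 10.4 and 13.9 CPM in GFP high against 4.90, 4.45 and 5.19 in GFP low, at -1.28 (-1.68 to -0.88), and this was 1 of 2 lower peaks among 40. MEF2C, a factor that acts behind the B-cell receptor, had one 49.1 kb outside the gene (chr5:88952941-88953441) at -1.22. FOXP1, which is needed early in B-cell development, had one inside the gene (chr3:71090145-71090645) at -1.18. PAX5, the factor that maintains B-cell identity, had 0 of 15 peaks at least 2-fold lower and 4 at least 1.5-fold lower.

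B-cell receptor signalling genes had 22 of 263 peaks at least 2-fold lower, in 12 of 22 genes, and a median of -0.14. PIK3CG, a catalytic subunit of phosphoinositide 3-kinase, had an internal peak (chr7:106883514-106884014) at 14.97, 12.02 and 14.2 CPM against 2.87, 4.79 and 2.45, at -2.02 (-2.47 to -1.58). It was also low later, at -2.17 and -1.44. SYK, a kinase recruited to the activated receptor, had a peak 10.9 kb outside the gene (chr9:90909160-90909660) at -1.50, and the adaptor gene DAPP1 an internal one (chr4:99847283-99847783) at -1.43. CD79A and CD79B, the signalling chains of the receptor itself, had no peak past either limit among 2 and 4. Surface markers of B cells had 2 of 56 peaks at least 2-fold lower, at CR2 (complement receptor 2, 23.6 kb outside the gene, -1.22) and BLNK. At the 1.5-fold limit they had 3 lower peaks and 2 higher ones, with CD22 at 0.76 (0.43 to 1.09).

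Lists of germinal centre and later B-cell stages had medians between -0.22 and 0.03. Raji comes from a lymphoma of germinal centre origin, where cells cycle between a dark zone of division and a light zone of selection. The dark zone list had 8 of 127 peaks at least 2-fold lower and a median of -0.15. A peak 16.8 kb outside MYBL1 was at -1.43 (14.2 and 5.23 CPM) and one 19.4 kb outside EZH2 at -1.08. The gene-end peaks were above 0, at 0.05 and 0.33 for MYBL1 and at 0.17 and 0.44 for EZH2. The light zone and CD40 list had 1 of 117, a peak 45.9 kb outside MYC at -1.08, and a median of 0.03 that was -0.01 with library size scaling. Memory B-cell genes had 10 of 158 and a median of -0.22, the plasma cell list 5 of 64 and -0.11. In the memory list the peaks with the largest differences among those that met the count and overlap conditions were near TLE3 (-1.54), FCRL5 (-1.39) and ITGB1 (-1.18), while peaks at CD44 (-1.61) and RORA (-1.27) had fewer than 30 counts on average. In the plasma cell list CD38, a surface enzyme of germinal centre and plasma cells, had an internal peak (chr4:15784825-15785325) at 25.1, 28.3 and 28.4 CPM against 10.3, 12.3 and 10.8, at -1.29 (-1.56 to -1.03). PRDM1 (BLIMP1), the factor that drives plasma cell fate, had a peak 32.0 kb outside the gene (chr6:106141714-106142214) at 39.5 and 18.4 CPM, at -1.10 (-1.31 to -0.89).

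T-cell markers, genes of the other lymphocyte lineage, had lower values at gene ends as well. Of 51 peaks, 7 (13.7%) were at least 2-fold lower, 16 (31.4%) at least 1.5-fold lower and 0 at least 1.5-fold higher. Over all peaks these shares were 8.16%, 19.8% and 5%. Their median was -0.29. The median of the 9 gene-end peaks was -0.43 and stayed below 0 under each scaling (-0.43 to -0.57). These 9 were not alike: that of CD8A was above 0, at 0.15, and the 2 of CD3E were at -0.08 and -0.25. Gene-end peaks of 5 of 7 defining markers summed to 109 CPM in GFP high against 85.9 in GFP low, and CD3G and CD4 had none. CD28, a costimulatory receptor, had an internal peak (chr2:203718021-203718521) at 9.56, 13.5 and 14.3 CPM against 5.14, 4.22 and 2.94, at -1.63 (-2.05 to -1.21), and CD3D one at its end at -1.04. Whether cells of another type take part in this was not tested. Myeloid markers had only 11 peaks, with the lowest median of the 22 lists, -0.68 (-0.42 with loess scaling). Of these 9 were below 0, 6 (54.5%, against 19.8% of all peaks) at least 1.5-fold lower and 1 at least 2-fold lower. Epithelial and stromal markers had 1 of 28 at least 2-fold lower and a median of 0.04.

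Most gene-end peaks of growth and housekeeping lists were above 0, as were gene-end peaks at large, of which 17.3% were below 0. The medians below are read against 0.25 over all gene-end peaks (0.14 with loess scaling), and the 1.5-fold higher counts against 5% of all peaks and 7.45% of gene-end peaks. Cytosolic ribosomal protein genes had 0 of 53 peaks at least 2-fold lower. At the 1.5-fold limit these genes had 3 lower and 7 higher peaks, all 7 at gene ends. Their 30 gene-end peaks had a median of 0.40 at 24 h (0.32 with loess scaling), -0.03 at 48 h and 0.25 at 72 h, and 26 of them were above 0 at 24 h. RPL27 had, at chr17:42997963-42998463, 16.5, 16.7 and 13.1 CPM against 29.3, 31.0 and 30.2, at 0.98 (0.74 to 1.22), and RPL19 was at 0.80. Cell-cycle and replication genes had 0 of 63 at least 2-fold lower. At the 1.5-fold limit these genes had 1 lower and 7 higher peaks, 3 of the 7 at gene ends. Their 33 gene-end peaks had a median of 0.22 (0.13 with loess scaling), no higher than that of all gene ends. The start of E2F1, which switches on genes of DNA replication, had, at chr20:33686247-33686747, 18.6, 18.2 and 21.1 CPM against 35.2, 37.7 and 34.0, at 0.87 (0.66 to 1.09), and that of the cyclin gene CCNE1 (chr19:29811556-29812056) was at 0.68 (0.49 to 0.88). Housekeeping genes had 25 of 27 gene-end peaks above 0, with a median of 0.33; with loess scaling these were 22 and 0.16, close to the 0.14 of all gene ends.

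In the lists of chromatin regulators and AP-1 factors, Polycomb and AP-1 genes had gene-end medians above and other medians below 0, and CTCF and cohesin genes had both above 0. Gene-end peaks of Polycomb genes had a median of 0.44 at 24 h and -0.04 at 48 h and their other peaks one of -0.10 at 24 h, while 7 of 121 peaks were at least 2-fold lower, among them one 19.9 kb outside EED, a core subunit of the PRC2 complex (chr11:86224633-86225133), at -1.75. CTCF and cohesin genes had 26 of 26 gene-end peaks above 0 (25 with loess scaling) and a median of 0.28 over all 77 peaks (0.19 with loess scaling). Their gene-end and other medians were 0.33 and 0.16, and with loess scaling the order turned, at 0.16 and 0.22. The list also held a peak 32.1 kb outside the cohesin loader gene NIPBL (chr5:36844438-36844938) at -1.46. In the AP-1 list, with medians of 0.34 at gene ends and -0.03 elsewhere (0.34 and 0.005 with loess scaling), JUN had a peak 7.27 kb outside the gene (chr1:58773272-58773772) at 7.90, 4.37 and 5.28 CPM against 1.43, 1.94 and 2.06, at -1.63 (-2.24 to -1.01). The start of JUND, from the same family (chr19:18281382-18281882), was at 0.95 (0.75 to 1.15), with 20.7, 23.1 and 20.3 CPM against 36.1, 40.3 and 46.2.

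Genes of antigen presentation, adhesion and survival held differences in both directions. CD74, the invariant chain of MHC class II, had an internal peak (chr5:150409686-150410186) at 11.5, 15.2 and 13.99 CPM against 25.8, 22.9 and 24.4, at 0.84 (0.58 to 1.10). RFXANK, a factor that switches class II genes on, had one at its end at 0.82, and RFXAP, its partner, one outside the gene at -1.19. RGS1, which damps chemokine signalling, had a gene-end peak (chr1:192580368-192580868) at 12.6, 12.6 and 10.8 CPM against 27.6, 22.3 and 22.5, at 1.01 (0.74 to 1.28), and at 1.18 at 48 h. ITGA4, an integrin chain, had one 46.0 kb outside the gene at -1.10. BAK1, which opens the mitochondrial membrane in apoptosis, and BCL2, which prevents this, had peaks outside the genes at -1.50 and -1.28. Interferon response genes had 0 of 48 peaks at least 2-fold lower, with the lowest at ISG20 (-0.998), which is close to the limit and passes it with library size and median-ratio scaling, and the NF-kB list had 0 of 61.

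**Figure D4:**
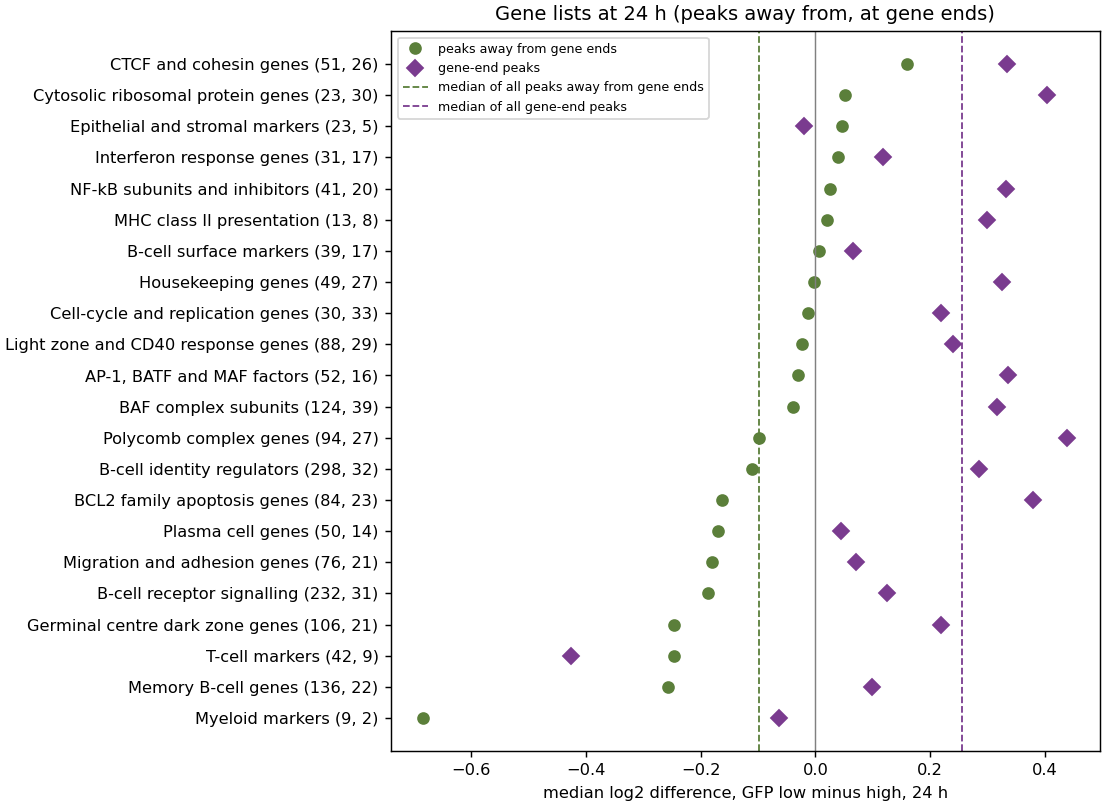
Each row is a gene list with the number of its peaks away from and at gene ends in brackets, and symbols give the median log2 difference of GFP low minus GFP high at 24 h for each kind, with dashed lines at the medians of all such peaks (-0.10 and 0.25). Gene-end medians are above 0 in the lists other than those of T-cell (-0.43), myeloid (-0.06, 2 peaks, 0.08 with loess scaling) and epithelial and stromal markers (-0.02, 5 peaks).

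The 24 h contrast was set beside those at 48 and 72 h, which come from other columns. These libraries too are 1 per GFP level and time, so no difference between times was tested, and peaks chosen at 24 h tend to be less extreme elsewhere. Of the 5822 peaks at least 2-fold lower at 24 h, 1742 (29.9%) passed the same limit at 48 h, 1614 (27.7%) at 72 h, 889 at both and 3355 at neither. The sign was the same in 97.7% and 98.5% of them. Their medians were -1.23, -0.80 and -0.79. Chosen the other way, 1742 of 2746 peaks 2-fold lower at 48 h (63.4%) and 1614 of 2732 at 72 h (59.1%) were so at 24 h. Median levels of the 5822 peaks were 7.18, 6.17 and 6.11 CPM in GFP high against 2.93, 3.56 and 3.50 in GFP low from 24 to 72 h.

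Higher gene ends were a feature of 24 h more than of 48 h in these libraries. At least 1.5-fold higher gene-end peaks numbered 1022 at 24 h, 64 at 48 h and 28 at 72 h. Of the 1022, the sign was the same in 52.7% at 48 h and in 91.3% at 72 h, with medians of 0.66, 0.01 and 0.23. Their median level was 15.7 CPM in GFP high at 24 h and 20.03 and 18.7 later, and in GFP low 25.4 at 24 h and 20.3 and 21.7 later. Because the 1022 were chosen by their 24 h values, some narrowing of both levels later follows from the choice. Whether either level changed with time was not tested. Over all gene-end peaks, the share of counts was 39.6%, 41.1% and 40.9% in GFP high and 45.9%, 44.6% and 45.6% in GFP low. In the columns at 24 h it was 39.3%, 39.7% and 39.7% against 45.7%, 46.0% and 45.9%. The fraction of reads in peaks and fragment sizes were not analysed here, and their part in these shares was not tested.

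**Figure D5:**
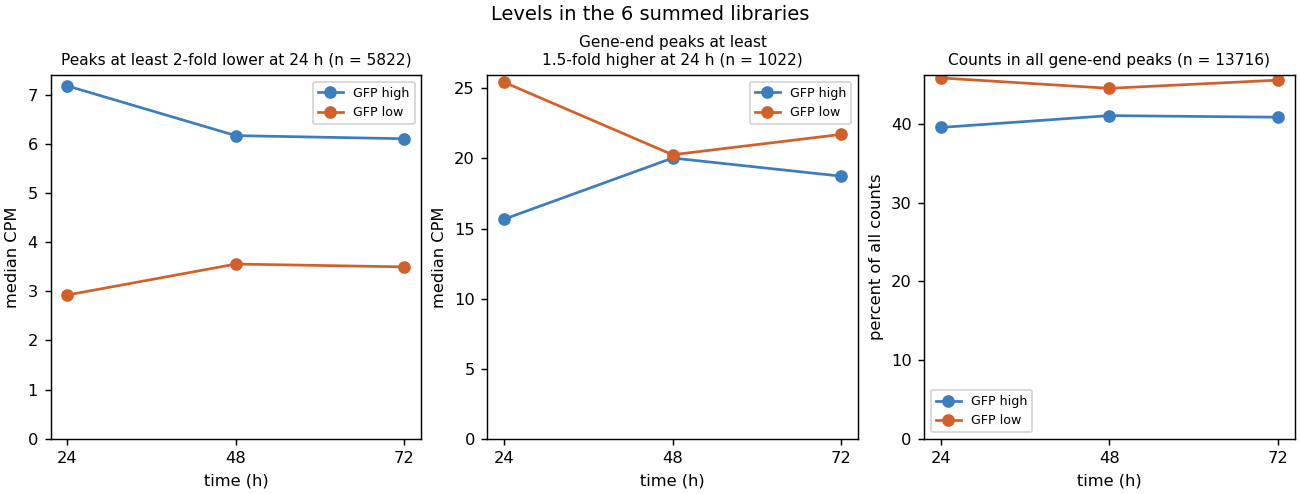
Lines give the GFP high and GFP low libraries at 24, 48 and 72 h: median CPM of the 5822 peaks at least 2-fold lower at 24 h, median CPM of the 1022 gene-end peaks at least 1.5-fold higher at 24 h, and percent of all counts in the 13716 gene-end peaks. The first pair is widest at 24 h (7.18 and 2.93 CPM), the second closes at 48 h (20.03 and 20.3 CPM), and the third is widest at 24 h (39.6% and 45.9%).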

How the data were processed

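Omni-ATAC-seq reads were counted by the authors in 1 common set of 71318 peaks, and the deposited values are raw read counts in 18 columns. The submitters' processing notes name FastQC, BWA, deepTools, R 4.2.1 and hg38. What each tool did, the peak caller, the handling of duplicate reads and whether reads were shifted for the transposase are not stated in the labels; duplicates or counting of both fragment ends would raise the noise of each count. V numbers in the headers were not matched to replicate numbers, and same-numbered columns did not deviate together (correlations between -0.0023 and 0.0063). The 3 columns of each GFP level at 24 h were summed. Log2 differences used CPM with TMM scaling over 6 libraries (edgeR 4.0.16 in R 4.3.3), a prior count of 2 and no filter. The 95% intervals multiply the counting variance by 1.79 and cover counting error only; their median half-width was 0.389 on the log2 scale, 0.638 in the weakest of 10 bins of peak level and 0.155 in the strongest. The interval was tested on simulated data, at peaks with at least 30 counts in GFP high.

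Peaks took the gene of a RefSeq table on GRCh38 (19880 protein-coding genes, 94 readthrough genes left out) whose end lies within 1 kb, or else the shortest gene that contains the centre, or the nearest within 50 kb. Exons, introns and UTRs were not separated. Promoter windows and sequences came from RefSeq on GRCh38.p14; no genome sequence was used, so peaks away from promoters have no sequence here. Members, gene lists, motifs and naming rules were chosen with earlier results of these data known. Named peaks had a mean count of at least 30 and columns that do not overlap: the 10 largest falls and rises, 1 per gene, 6 of each at gene ends, the 4 strongest lower and higher ones, up to 3 per list, the 5 genes with the most 2-fold lower peaks, and the ends of SMARCA4 and SMARCA2. Alternatives were other scalings, prior counts, filters and gene distances, columns left out, and edgeR and DESeq2 1.42.0 fits on the 6 columns.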

Additional observations from a re-analysis of the deposited data

Results flagged for a closer look

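Gene-end peaks of E2F1, JUND and SMARCA4 were higher in GFP low at 24 h and lower at 48 h, with both counting intervals clear of 0. E2F1 stood at 0.87 at 24 h and at -0.21 (-0.396 to -0.016) at 48 h. JUND was at 0.95 and -0.20 (-0.381 to -0.018), and SMARCA4 at 0.67 and -0.24 (-0.476 to -0.007). The 48 h intervals thus ended close to 0. At 72 h they were at 0.45, 0.50 and 0.32. With 1 library per GFP level and time the difference between times was not tested. Over all peaks, 482 were higher at 24 h and lower at 48 h in this sense and 219 the reverse, against 112 and 94 at 72 h.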

How the results depend on the processing

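Counts of lower peaks depended little on tool and on leaving out 1 column. Counts in both directions depended on scaling and level. With loess scaling 3854 peaks were at least 2-fold lower, 654 at least 2-fold higher and 5999 at least 1.5-fold higher. At a mean count of at least 30, which 62507 peaks met, 4388 were at least 2-fold lower and 72 at least 2-fold higher. Leaving out 1 column gave 5773 to 6011 at least 2-fold lower, 187 to 350 at least 2-fold higher, 14029 to 14200 at least 1.5-fold lower and 3906 to 4558 at least 1.5-fold higher; for the 2-fold higher peaks this was 259, 275 and 350 without GFP high column V0, V1 or V2, against 151 with all columns. The gene-end median of 0.25 was 0.22 with library size scaling, 0.245 with median-ratio scaling, 0.14 with loess scaling, 0.23 with gene ends within 2.5 kb and 0.26 within 1 kb of an annotated start (added after seeing the data). The gene-body median was -0.14, -0.11, -0.025 and -0.12 under the first 4 of these and -0.082 at a mean count of at least 30. The intergenic median was -0.14 with library size scaling, 0.0030 with loess scaling (the opposite sign), -0.11 at 2.5 kb and -0.077 at a mean count of at least 30. The SMARCA2 start peak was at -0.10 with loess scaling. The cause of these shifts was not tested.

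Whether V numbers pair the columns could not be told, because the columns of a level show counting spread only. With a replicate block by V number, edgeR on the 6 columns called 5783 peaks at least 2-fold lower, 212 at least 2-fold higher, 13098 at least 1.5-fold lower and 3641 at least 1.5-fold higher, against 5743, 200, 13198 and 3680 without it and 5715, 200, 12059 and 3174 by DESeq2. These fits compare libraries, not conditions. Weak peaks are limited by depth: their intervals span more than 1.5-fold.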

Other observations

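Chromosomes differed in the median of peaks away from gene ends at 24 h, from -0.16 on chromosome 8 to 0.12 on chromosome 19, with chromosome X at 0.05. On chromosome 19 the 1091 such peaks included 26 (2.38%) at least 2-fold lower. At the 1.5-fold limit 94 (8.62%) were lower and 109 (9.99%) higher, against 23.9% and 4.42% of all peaks away from gene ends. The chromosome 19 median was -0.11 at 48 h and -0.09 at 72 h. Among the 1191 genes with at least 10 peaks, the highest medians at 24 h were those of IRF2BP2 (0.50, a corepressor), ATE1 (0.47) and PHF21A (0.45), which were at 0.06, 0.09 and -0.02 at 48 h. BCL6, the master regulator of germinal centre B cells, came next at 0.44 with 1 of 10 peaks at least 2-fold lower. At the other end, after TG and MOB3B, were GALNT18 (-0.99), SNX29 (-0.94) and AK5 (-0.94). These genes were named after their values were seen.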
